A study of Caenorhabditis elegans with 11 samples.

Results

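The 4 glh genes and the 3 pgl genes of Caenorhabditis elegans encode core proteins of P granules, the germ granules of the nematode. Their antisense small RNA and mRNA were followed in gonads of cup-4 mutants and of wild type. The 7 genes were chosen by name and make up 7 of the 46904 gene rows of each deposited count table. All 7 passed the filter on low counts in both assays. The mutant strain was RB950, in which all cells carry the allele ok837, a deletion in cup-4, and the wild type was strain N2. All libraries came from dissected gonads of adults on their first day of adulthood. Small RNA was sequenced from 3 cup-4 and 3 wild-type samples, and mRNA from 3 cup-4 samples and from replicates 2 and 3 of wild type. The column names of all small RNA libraries, in both genotypes, carry the tag TAP, which is not interpreted here. The mutant was represented by a single strain, and the number of animals behind a sample is not given in the sources used here. The labels name a biological replicate by its batch, so p-values measure the spread between these samples.

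P granules are condensates of protein and RNA that sit at the outer face of germ cell nuclei, over the nuclear pores. The GLH proteins are DEAD-box RNA helicases of the Vasa family, and the PGL proteins are the scaffold that assembles with them. Transcripts that leave the nucleus pass through these granules, where Argonaute proteins meet them with small RNAs. Many germline transcripts, those of the granule proteins included, are themselves templates from which RNA-dependent RNA polymerases make small RNAs of antisense sequence. A count of antisense small RNA therefore describes how heavily a gene's transcript is matched by such RNAs, and the mRNA count describes the transcript itself. The gene cup-4 encodes a protein needed for uptake by coelomocytes, the scavenger cells of the body cavity, and the series, by its title, asks how their failure bears on RNA balance in the animal and on inherited germline tumours.

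By the RefSeq annotation of assembly WBcel235, which ce11 also denotes, all 4 glh genes lie on chromosome I. Of these, glh-1 (WBGene00001598, T21G5.3) spans bases 6854478 to 6857536, glh-2 (WBGene00001599, C55B7.1) spans 6513928 to 6517507, glh-3 (WBGene00001600, B0414.6) spans 5792321 to 5795114 and glh-4 (WBGene00001601, T12F5.3) spans 3727027 to 3731179. The pgl genes lie on 3 other chromosomes. The gene pgl-1 (WBGene00003992, ZK381.4) is on chromosome IV at 6974442 to 6977318, pgl-2 (WBGene00003993, B0523.3) on chromosome III at 8670543 to 8675051 and pgl-3 (WBGene00003994, C18G1.4) on chromosome V at 4755979 to 4758587. All 7 are protein-coding genes. The pseudogene kin-31 overlaps the span of pgl-2, and no other annotated gene overlaps a member. Any part of kin-31 in the values of pgl-2 was not measured, which leaves those values uncertain.

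Counts over all genes summed to 14858199 to 39310540 per small RNA library and to 21290140 to 29559542 per mRNA library. The counts of the 7 genes ranged from 606 to 37420 in small RNA and from 428 to 49852 in mRNA. The mutated gene was checked first, and cup-4 had mRNA counts of 23, 37 and 20 in cup-4 replicates 1, 2 and 3, against 117 and 85 in wild-type replicates 2 and 3 (log2 fold change -1.90, edgeR adjusted p = 0.148). For the tissue label, 8 germline marker genes were examined, among them the meiotic chromosome genes htp-3 and him-3, and each had counts in every library of both assays. All 10 intestine markers did too, so the presence of counts cannot tell gonad from other tissue. In mRNA, the marker sums of intestine, body wall muscle, and gonadal sheath and spermatheca were higher in cup-4 without overlap. The mean was higher in cup-4 for 10 of 10 intestine, 5 of 6 muscle and 4 of 6 sheath and spermatheca markers. The coelomocyte marker sum was lower without overlap, and the oocyte, sperm, hypodermis and neuron marker sums overlapped. Of all genes tested in mRNA, 20.1% were higher and 17.8% lower in cup-4 without overlap. The 10 intestine markers summed to 112363, 19189 and 34303 CPM (counts relative to the scaled library total) in cup-4 replicates 1, 2 and 3, against 4047 and 3470 CPM in wild-type replicates 2 and 3. Body wall muscle markers summed to 850 to 3908 CPM in cup-4 and to 505 to 775 CPM in wild type, and gonadal sheath and spermatheca markers to 827 to 1209 CPM in cup-4 and to 416 to 790 CPM in wild type. The 2 coelomocyte markers, unc-122 and the mutated gene cup-4 itself, summed to 2.32 to 3.08 CPM in cup-4 and to 4.33 to 5.47 CPM in wild type. The lower sum rested on the gene cup-4, at 0.859 to 1.20 CPM in the mutant and 3.44 to 4.60 CPM in wild type. The mean of unc-122 was higher in the mutant. In antisense small RNA the 8 germline markers summed to 837, 866 and 912 CPM in cup-4 and to 1041, 1047 and 1009 CPM in wild type, without overlap, while the 10 intestine markers summed to 36.1 to 69.6 CPM in cup-4 and to 18.5 to 31.3 CPM in wild type. Antisense small RNA of sheath and spermatheca markers was also lower in cup-4 without overlap, at 215 to 238 CPM in cup-4 and 239 to 251 CPM in wild type, and the other sets overlapped. The margin was narrow, and 2 of the 6 sheath and spermatheca markers had a higher antisense mean in cup-4. The part of intestine or sheath RNA in the antisense values that follow was not tested. In such bulk samples fewer germ cells and less RNA per germ cell cannot be told apart.

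Antisense small RNA of the P granule helicase genes glh-1 and glh-4 was lower in cup-4 by about the same factor, at 69.2% and 70.4% of the wild-type mean. Values below are CPM with library sizes scaled by the trimmed mean of M values (TMM), fold changes set cup-4 against wild type on the log2 scale, positive where cup-4 is higher, and adjusted p-values are those of edgeR's quasi-likelihood test with Benjamini-Hochberg adjustment over all 13336 genes tested, with a threshold of 0.05. By this test 2 of the 7 genes, glh-1 and glh-4, fell in antisense small RNA, and 0 rose. Of all genes tested, 1.12% passed in either direction, 0.337% as lower and 0.78% as higher in cup-4. DESeq2 called 4 of the 7, all lower in cup-4, namely glh-1 (adjusted p = 7.06e-06), glh-4 (1.82e-10), glh-2 (0.00189) and pgl-1 (0.0327), where it called 4.99% of all genes as lower.

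GLH-1 is the helicase most used to mark P granules and the main Vasa homologue of the worm. Its antisense small RNA stood at 276, 276 and 284 CPM in cup-4 replicates 1, 2 and 3, against 361, 437 and 411 CPM in wild-type replicates 1, 2 and 3. The cup-4 libraries lay close together and all below the lowest wild-type library. The averages were 279 ± 4.65 CPM in cup-4 and 403 ± 38.9 CPM in wild type (SD, n = 3 each), which is -0.53 on the log2 scale (SE 0.090, edgeR adjusted p = 0.0479). With batch as a block, where 0.555% of all genes passed as lower, the call did not hold (edgeR adjusted p = 0.0514).

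GLH-4 acts together with GLH-1 in fertility, and its gene carried the most antisense small RNA of the 7, per kilobase of gene as well as in CPM. It had 641, 634 and 677 CPM in cup-4, against 902, 938 and 933 CPM in wild-type replicates 1, 2 and 3. Every cup-4 library was below every wild-type library, and the gap between them was wider than the range within either genotype. The averages were 651 ± 23.4 CPM in cup-4 and 925 ± 19.4 CPM in wild type (SD, n = 3 each), which is -0.51 on the log2 scale (SE 0.072, edgeR adjusted p = 0.0276). With batch as a block the adjusted p of glh-4 was 0.0449. Both calls stand close to the threshold. Scaled by total counts, edgeR gave glh-1 an adjusted p of 0.130 and glh-4 one of 0.114, and leaving out any 1 cup-4 library, or wild-type replicate 3, ended both calls (edgeR adjusted p of 0.0912 to 0.217). Leaving out wild-type replicate 2 ended that of glh-1 (0.0558).

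GLH-2, the helicase closest to GLH-1, did not pass. Its gene had 100, 101 and 111 CPM of antisense small RNA in cup-4, against 132, 132 and 134 CPM in wild-type replicates 1, 2 and 3. The genotypes did not overlap, and the wild-type libraries were nearly level. The log2 fold change was -0.35 (SE 0.072, edgeR adjusted p = 0.0708), with averages of 104.1 ± 6.28 CPM in cup-4 and 133 ± 1.25 CPM in wild type (SD, n = 3 each).

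GLH-3 lacks the glycine-rich repeats that the other GLH proteins carry. Its gene had 123, 131 and 144 CPM in cup-4, against 141, 160 and 144 CPM in wild-type replicates 1, 2 and 3. The genotypes overlapped through cup-4 replicate 3. The log2 fold change was -0.16 (SE 0.089, edgeR adjusted p = 0.317).

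Among the scaffold genes, pgl-1 differed most. PGL-1 is the founding P granule protein, present in germ cells throughout development. Its gene had 300.0, 288 and 321 CPM of antisense small RNA in cup-4, against 361, 389 and 341 CPM in wild-type replicates 1, 2 and 3. The genotypes did not overlap, but the highest cup-4 library and the lowest wild-type library, both of batch 3, lay close. The averages were 303 ± 16.5 CPM in cup-4 and 364 ± 24.3 CPM in wild type (SD, n = 3 each). This difference, -0.26 on the log2 scale (SE 0.084), did not pass (edgeR adjusted p = 0.140).

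PGL-3 is the close partner of PGL-1, and its gene had 211, 209 and 228 CPM in cup-4, against 259, 236 and 221 CPM in wild-type replicates 1, 2 and 3. The genotypes overlapped in batch 3, where cup-4 was the higher one. The log2 fold change was -0.14 (SE 0.086, edgeR adjusted p = 0.348). PGL-2 is a scaffold protein of the germline after embryogenesis, and its gene had the least antisense small RNA of the 7, also per kilobase, with 35.4, 41.4 and 38.8 CPM in cup-4 and 39.0, 41.8 and 48.0 CPM in wild-type replicates 1, 2 and 3. These groups overlapped as well, and the log2 fold change was -0.16 (SE 0.11, edgeR adjusted p = 0.415).

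**Figure D1:**
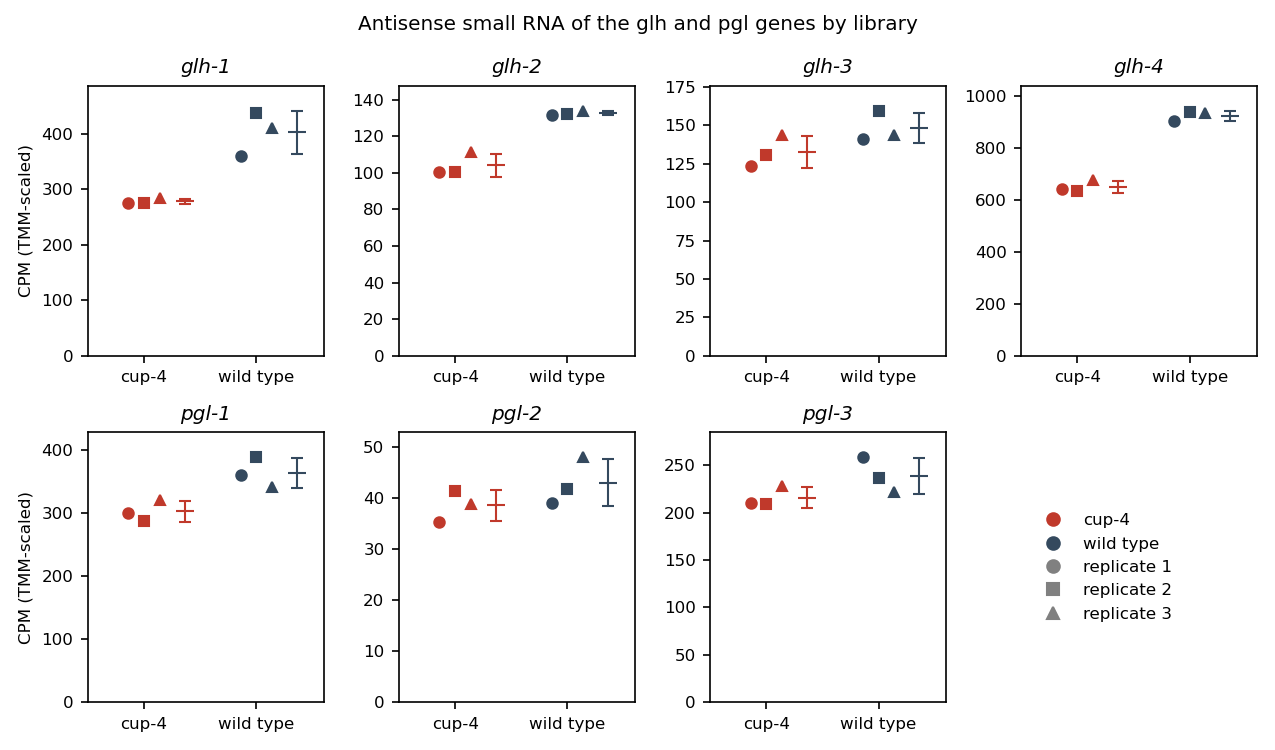
Antisense small RNA of each gene in each of the 6 small RNA libraries, in TMM-scaled CPM on axes that start at 0. Symbols mark replicates 1, 2 and 3 (batches), and the bar beside each group is the mean ± SD (n = 3). The cup-4 libraries sit below all wild-type libraries for glh-1, glh-2, glh-4 and pgl-1, and overlap them for glh-3, pgl-2 and pgl-3.

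As a group and with TMM scaling, 4 of the 7 genes did not overlap between genotypes and were lower in cup-4. Of all genes tested, 14.8% did so. The median log2 fold change over the 7 genes was -0.26, against 0.0065 over all genes tested, of which 49.3% were below 0. An unadjusted p under 0.05 was found for 4 of the 7, all lower in cup-4, against 11.1% of all genes as lower and 22.8% in either direction. All 7 fold changes were below 0 with TMM, RLE and total-count scaling. They were not all below 0 relative to the germline markers, where those of glh-3, pgl-2 and pgl-3 were 0.060, 0.064 and 0.078. Scaling by total counts moved the median of all genes to 0.12 and scaling by the markers to 0.23, so the members stood below that median under each of these scalings. Within batches, which hold 1 library per genotype, cup-4 was the lower one with TMM scaling in 3 of 3 batches for glh-1, glh-2, glh-4, pgl-1 and pgl-2, and in 2 of 3 for glh-3 and pgl-3. For pgl-2 the log2 difference in batch 2 was only -0.017. With total counts cup-4 was the higher one for pgl-2 in batch 2 and for glh-2 and pgl-1 in batch 3, so 3 of 3 held for glh-1 and glh-4 alone. The genotypes then overlapped for glh-2 and pgl-1 too, and stayed apart for glh-1 and glh-4 alone. With TMM scaling the log2 difference of glh-4 was -0.49, -0.57 and -0.46 in batches 1, 2 and 3, and that of glh-1 was -0.39, -0.66 and -0.53.

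Since antisense small RNA of the germline markers was itself lower in cup-4, each gene was also expressed as a percentage of the markers' summed antisense CPM in the same library. On this scale glh-4 stood at 76.6%, 73.2% and 74.2% in cup-4 replicates 1, 2 and 3, against 86.7%, 89.7% and 92.5% in wild type. The genotypes remained apart. For glh-1 the values were 33.0%, 31.9% and 31.1% in cup-4, against 34.6%, 41.8% and 40.7% in wild type, and for glh-2 they were 12.0%, 11.6% and 12.2% in cup-4, against 12.6%, 12.6% and 13.3% in wild type. Both genes were still without overlap, by narrow margins at wild-type replicate 1. The share of pgl-1 overlapped, at 33.3% to 35.9% in cup-4 and 33.8% to 37.2% in wild type, as did those of glh-3, pgl-2 and pgl-3. Of all genes tested, 1.93% were lower in cup-4 without overlap on this scale. In an edgeR fit with the libraries scaled by these 8 markers, the log2 fold change was -0.29 for glh-4 (adjusted p = 0.0798), -0.31 for glh-1 (0.104) and -0.13 for glh-2 (0.206). It was -0.041 for pgl-1 (0.736).

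**Figure D2:**
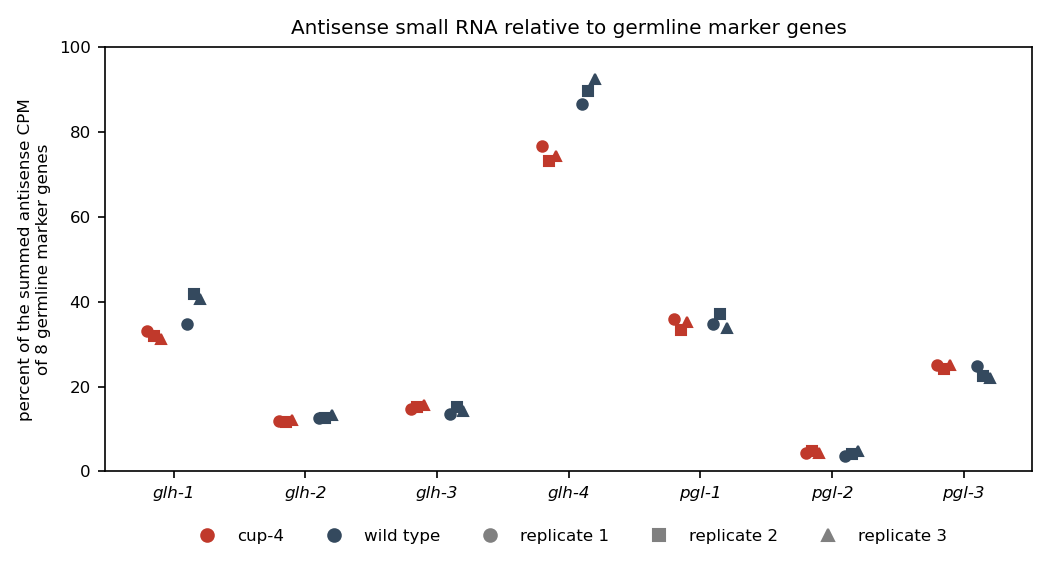
Antisense small RNA of each gene as a percentage of the summed antisense CPM of 8 germline marker genes in the same library, for 3 cup-4 and 3 wild-type libraries, with symbols for replicates. The libraries separate by genotype for glh-1, glh-2 and glh-4 and overlap for glh-3 and the pgl genes, with glh-4 at 73.2% to 76.6% in cup-4 and 86.7% to 92.5% in wild type.

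Proportions among the genes were compared within libraries. Antisense small RNA of pgl-1 amounted to 108.6%, 104.4% and 112.9% of that of glh-1 in cup-4 replicates 1, 2 and 3, against 100.03%, 89.0% and 83.1% in wild type. That of glh-3 amounted to 44.6%, 47.4% and 50.6% of glh-1 in cup-4, against 39.2%, 36.5% and 35.0% in wild type. Both proportions were higher in cup-4 without overlap, and the exact two-sided permutation test gave p = 0.1 for each, the smallest it can give with 3 samples against 3, and 0.3 after adjustment over the 6 pairs compared. For glh-4 relative to glh-1 the genotypes overlapped, with averages of 233% in cup-4 and 231% in wild type (exact two-sided permutation p = 0.8), and the remaining 3 pairs overlapped as well.

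In mRNA none of the 7 genes passed, and 0 of all 12861 genes tested did (0%). The edgeR quasi-likelihood test gave the 7 genes adjusted p-values of 0.740 to 0.998, and 0 of them had an unadjusted p under 0.05, against 17.2% of all genes tested. DESeq2 (8.29% of all genes) and limma-voom (0%) called 0 of the 7 as well. The wild-type libraries lay far apart: replicate 3 was above replicate 2 for all 7 genes, as for 46.3% of all genes tested, by 1.26-fold for pgl-2 and up to 3.17-fold for glh-2. The median log2 fold change of the 7 genes was 0.014, against 0.16 over all genes tested.

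The mRNA of glh-1 stood at 1136, 970 and 1304 CPM in cup-4 replicates 1, 2 and 3, against 849 and 2017 CPM in wild-type replicates 2 and 3. All cup-4 libraries lay between the wild-type ones. The log2 fold change was -0.33 (SE 0.41, edgeR adjusted p = 0.740), and leaving out wild-type replicate 3 gave 0.36, while leaving out replicate 2 gave -0.83. For glh-2 the mRNA stood at 712, 436 and 793 CPM in cup-4, against 276 and 877 CPM in wild type. Again the cup-4 libraries lay between, and the difference was 0.17 on the log2 scale (SE 0.53, edgeR adjusted p = 0.908).

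The genes glh-3 and glh-4 had much less mRNA than glh-1. Values of glh-4 were 87.7, 103 and 110 CPM in cup-4, against 62.2 and 138 CPM in wild-type replicates 2 and 3. The group means coincided at 100.03 ± 11.3 CPM in cup-4 (SD, n = 3) and 100.2 ± 53.7 CPM in wild type (SD, n = 2), so the log2 fold change was -0.0023 (SE 0.35, edgeR adjusted p = 0.998). Values of glh-3 were 46.4, 65.0 and 60.2 CPM in cup-4, against 46.4 and 76.3 CPM in wild type, which gave -0.10 on the log2 scale (SE 0.28, edgeR adjusted p = 0.895).

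The pgl genes varied less between the wild-type libraries. The mRNA of pgl-1 was 368, 500.2 and 490 CPM in cup-4, against 321 and 513 CPM in wild-type replicates 2 and 3, 0.12 on the log2 scale (SE 0.31, edgeR adjusted p = 0.888). That of pgl-3 was 198, 289 and 283 CPM in cup-4, against 201 and 305 CPM in wild type (log2 fold change 0.021, SE 0.30, edgeR adjusted p = 0.983). Both genes were lowest in cup-4 replicate 1 among the mutant libraries, as were glh-3, glh-4 and pgl-2, while glh-1 and glh-2 were lowest in cup-4 replicate 2. Of the mutant libraries, replicate 1 had the most intestine marker mRNA, whose part in these values was not tested. The mRNA of pgl-2 was 22.3, 34.9 and 26.0 CPM in cup-4, against 24.4 and 30.6 CPM in wild type, 0.014 on the log2 scale (SE 0.26, edgeR adjusted p = 0.987). All 3 cup-4 libraries lay between the wild-type ones for 5 of the 7 genes, the exceptions being pgl-2 and pgl-3, and for 9.27% of all genes tested.

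**Figure D3:**
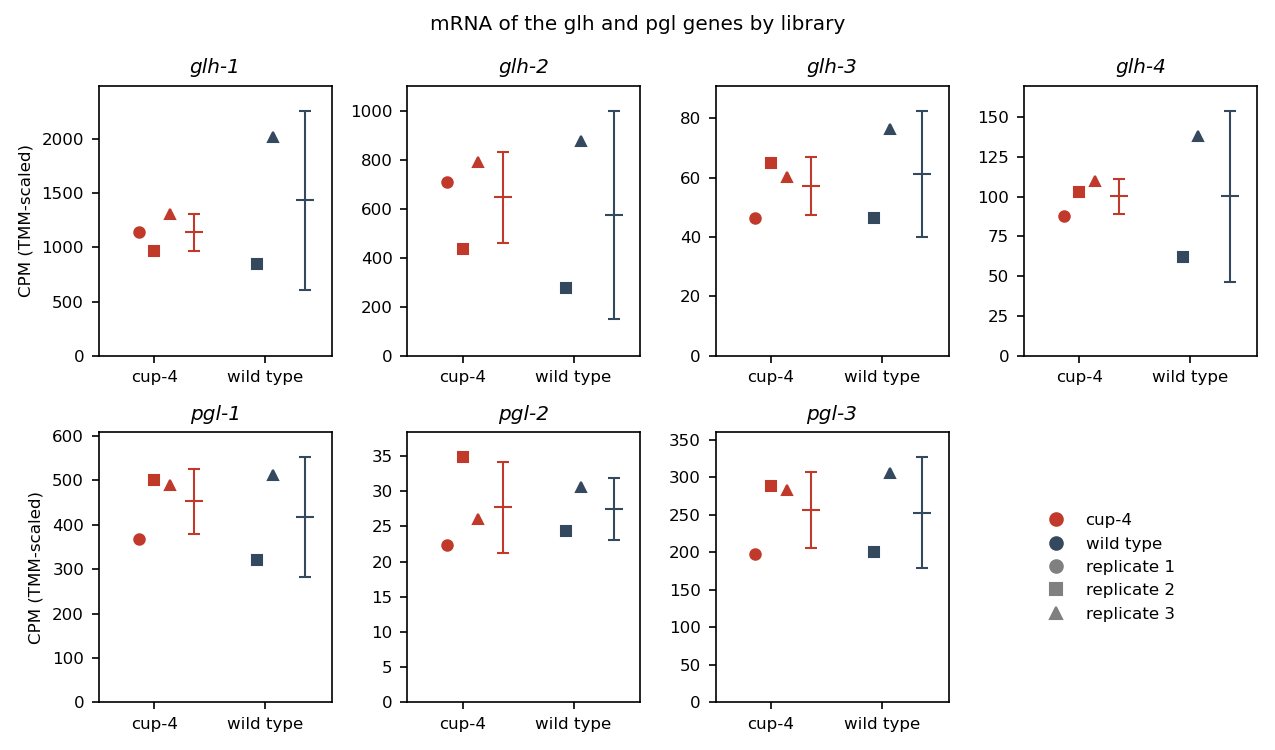
mRNA of each gene in each of the 5 mRNA libraries, in TMM-scaled CPM on axes that start at 0, with symbols for replicates and mean ± SD beside each group (n = 3 for cup-4, n = 2 for wild type). Wild-type replicate 3 is above wild-type replicate 2 in every panel, with 2017 CPM in replicate 3 and 849 CPM in replicate 2 for glh-1, and the cup-4 libraries lie largely between them.

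Directions within a batch also depended on the batch. In batch 2 cup-4 mRNA was higher than wild-type mRNA for all 7 genes, by 0.19 (glh-1) to 0.72 (glh-4) on the log2 scale. In batch 3 it was lower for all 7, with log2 differences of -0.067 (pgl-1) to -0.63 (glh-1). Each batch holds 1 library of each genotype, which allows no test. The summed mRNA of the 8 germline markers followed the same order, with 1396 CPM in cup-4 and 1028 CPM in wild type of batch 2, and 1475 CPM in cup-4 and 1596 CPM in wild type of batch 3. Relative to these markers, pgl-1 mRNA was 30.2%, 35.8% and 33.2% in cup-4, against 31.3% and 32.1% in wild-type replicates 2 and 3, so the spread between the wild-type libraries was small on this scale. For glh-2 it stayed wide, with 58.4%, 31.3% and 53.7% in cup-4, against 26.9% and 54.9% in wild type.

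The proportions among the genes were compared in mRNA as well. The mRNA of glh-2 amounted to 62.6%, 45.0% and 60.8% of that of glh-1 in cup-4 replicates 1, 2 and 3, against 32.6% and 43.5% in wild-type replicates 2 and 3. The genotypes did not overlap, by a small margin between cup-4 replicate 2 and wild-type replicate 3. The mRNA of glh-4 amounted to 7.72%, 10.6% and 8.41% of glh-1 in cup-4, against 7.33% and 6.85% in wild type, and that of pgl-3 to 53.9%, 57.8% and 57.7% of pgl-1 in cup-4, against 62.4% and 59.5% in wild type. These proportions did not overlap either, the first being higher and the second lower in cup-4. For each of the 3 the exact two-sided permutation test gave p = 0.2, the smallest it can give with 3 samples against 2, and 0.4 after adjustment over 6 pairs, so none passed. How reads that match both of a pair of related genes were assigned is not given in the sources used here, so the proportions carry that uncertainty.

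To ask whether antisense small RNA changed apart from the transcript, the difference between both log2 fold changes was tested as an interaction in 1 edgeR model over all 11 libraries. With TMM scaling all 7 estimates were below 0, that is, antisense small RNA stood lower relative to mRNA in cup-4. The median over all genes tested was -0.034. With total counts 5 of the 7 estimates were below 0. With TMM scaling the estimates were -0.51 for glh-2 (SE 0.53), -0.51 for glh-4 (SE 0.37) and -0.38 for pgl-1 (SE 0.29). The other estimates ran from -0.20 for glh-1 (SE 0.40) to -0.060 for glh-3 (SE 0.29). None passed, with edgeR adjusted p-values of 0.507 to 0.942 over 10163 genes, of which 2.36% passed. None of the 7 had an unadjusted p under 0.05, against 17.9% of all genes, and limma-voom called 0 of the 7 (0.581% of all genes). A change of antisense small RNA apart from mRNA was thus not detectable at this spread, and the estimates turned on the wild-type mRNA libraries: leaving out wild-type replicate 3 gave -1.52 for glh-2 (edgeR adjusted p = 0.0221) and -1.13 for glh-4 (0.0145), among 8.59% of all genes called as lower, and leaving out wild-type replicate 2 gave 0.092 and -0.040, neither past the threshold.

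**Figure D4:**
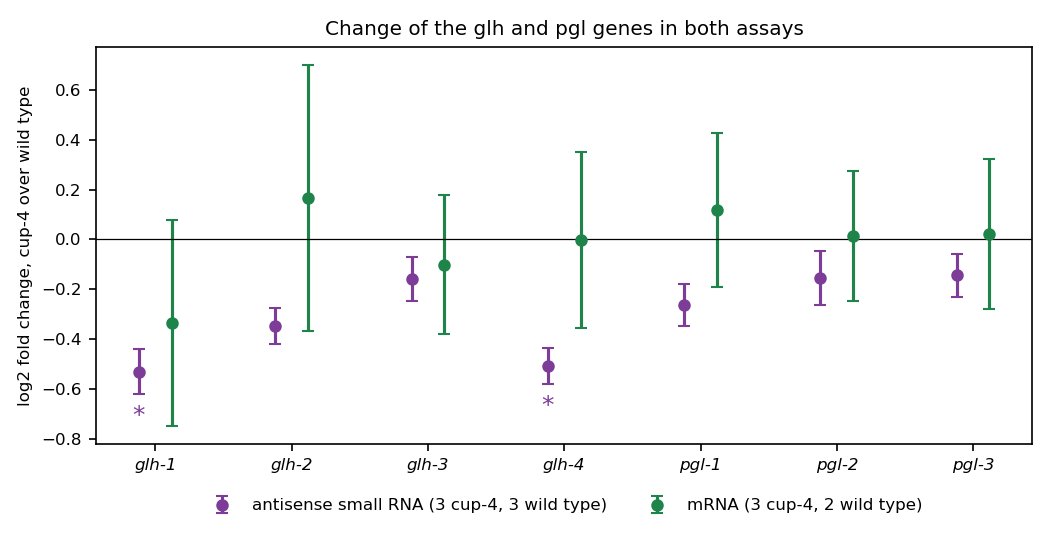
Log2 fold change of each gene, cup-4 over wild type, with its standard error, for antisense small RNA (3 against 3 libraries) and mRNA (3 against 2), where an asterisk marks an edgeR adjusted p under 0.05. The antisense points run from -0.53 (glh-1) to -0.14 (pgl-3) with short bars, and the mRNA points run from -0.33 (glh-1) to 0.17 (glh-2) with bars that all cross 0.

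The 7 genes ranked differently in the 2 assays. Levels were compared between genes as CPM per kilobase of annotated gene span, which includes introns, so a long intron lowers a gene's value. Antisense small RNA per kilobase ranked glh-4 first in every library, at 157 ± 5.63 in cup-4 and 223 ± 4.68 in wild type (SD, n = 3 each). It ranked pgl-2 last in every library, at 8.54 ± 0.665 in cup-4 and 9.52 ± 1.02 in wild type. Between these stood, in cup-4, pgl-1 at 105, glh-1 at 91.1, pgl-3 at 82.7, glh-3 at 47.5 and glh-2 at 29.1 CPM per kilobase. In wild type the order was glh-1 at 132, pgl-1 at 126, pgl-3 at 91.5, glh-3 at 53.0 and glh-2 at 37.0 CPM per kilobase. The ranges of glh-1 and pgl-1 overlapped in wild type. In cup-4 they did not, and pgl-1 was the higher one in all 3 libraries.

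In mRNA per kilobase glh-1 ranked first in every library, at 372 ± 54.7 in cup-4 (SD, n = 3) and 468 ± 270 in wild type (SD, n = 2). In cup-4 there followed glh-2 at 181, pgl-1 at 157, pgl-3 at 98.4, glh-4 at 24.1, glh-3 at 20.5 and pgl-2 at 6.15 CPM per kilobase. Wild type had the same order, with glh-2 at 161, pgl-1 at 145, pgl-3 at 96.9, glh-4 at 24.1, glh-3 at 22.0 and pgl-2 at 6.10. The ranges of glh-2 and pgl-1 and those of glh-4 and glh-3 overlapped in both genotypes, and those of pgl-1 and pgl-3 in wild type. Set among all tested genes with an annotated span, glh-1 mRNA stood at the 98.5th percentile in cup-4 and the 98.7th in wild type, while glh-4 stood at the 77.4th in cup-4 and the 77.5th in wild type. For antisense small RNA the order of these genes was turned round, with glh-4 at the 95.7th percentile in cup-4 and the 96.6th in wild type, and glh-1 at the 93.0th in cup-4 and the 94.7th in wild type.

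The ratio of antisense small RNA CPM to mRNA CPM in libraries of the same genotype and batch, in which gene length cancels, spread the helicase genes widely. The share of reads set apart as not uniquely aligned differed between the assays, as given above, and its part in the ratios was not tested. For glh-4 it was 7.31, 6.17 and 6.17 in batches 1, 2 and 3 of cup-4, against 15.1 and 6.75 in batches 2 and 3 of wild type. For glh-3 it was 2.65, 2.01 and 2.39 in cup-4, against 3.44 and 1.88 in wild type. Among all genes tested in both assays, these ratios put glh-4 at the 82.2nd to 90.1st percentile and glh-3 at the 64.4th to 75.9th. By contrast, glh-1 had ratios of 0.243, 0.285 and 0.218 in cup-4, against 0.515 and 0.204 in wild type. The ratio of glh-2 was lower still, at 0.140 to 0.231 in cup-4 and 0.153 to 0.479 in wild type. The median over the 10163 genes tested in both assays was 0.939 to 1.06 in cup-4 batches and 1.04 to 1.08 in wild-type batches.

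The scaffold genes lay near that median. The ratio of pgl-1 was 0.816, 0.576 and 0.655 in cup-4, against 1.21 and 0.665 in wild type, that of pgl-3 was 0.723 to 1.06 in cup-4 and 0.725 to 1.18 in wild type, and that of pgl-2 was 1.19 to 1.58 in cup-4 and 1.57 to 1.72 in wild type. All 7 ratios were lower in cup-4 than in wild type of batch 2. In batch 3 there were 4 lower and 3 higher. The difference in ratio between genotypes thus rested on wild-type replicate 2, the wild-type mRNA library with less mRNA of these genes.

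**Figure D5:**
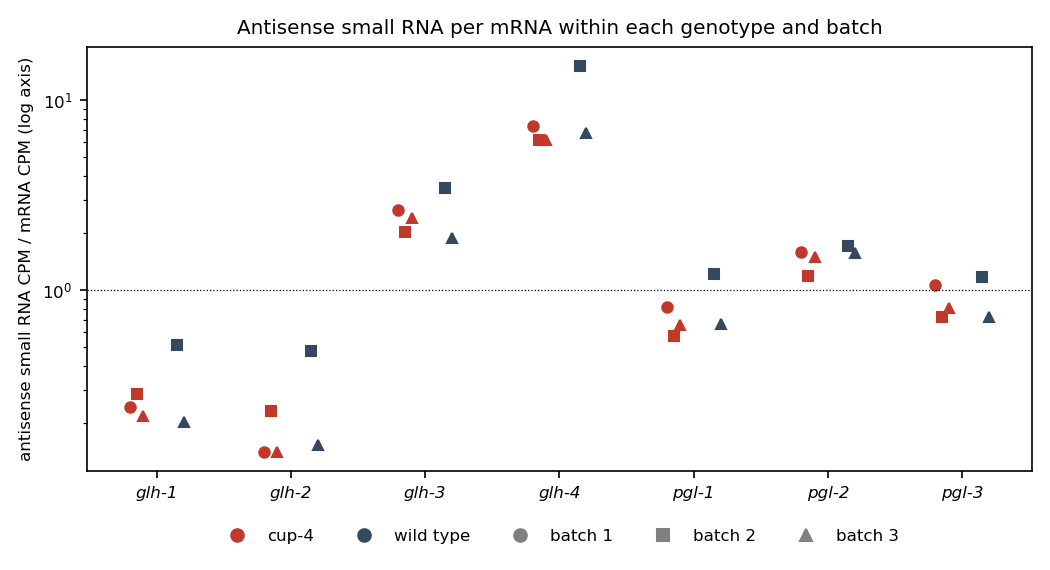
Ratio of antisense small RNA CPM to mRNA CPM for each gene on a log axis, computed within genotype and batch (3 batches of cup-4, 2 of wild type), with symbols for batches and a dotted line at a ratio of 1. The helicase genes span the plot, from 0.140 (glh-2) to 15.1 (glh-4), while the pgl genes lie between 0.576 and 1.72.

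The neighbours of the 7 genes on the chromosome were examined by position alone. Those named were chosen after their values were seen. Of the 14 nearest protein-coding genes on either side, 12 were tested in antisense small RNA, with log2 fold changes of -0.51 to 0.86 and edgeR adjusted p-values of 0.0534 to 0.928. The gene sacy-1, itself a DEAD-box helicase gene, ends 337 bases from glh-1 and had a log2 fold change of -0.15 (edgeR adjusted p = 0.524), against -0.53 for glh-1. C55B7.11, which ends 97 bases from glh-2, had one of -0.29 (edgeR adjusted p = 0.137). The meiotic gene him-3, itself 1 of the 8 germline markers, lies 189 bases from pgl-1, and its antisense small RNA stood at 99.5 CPM on average in cup-4 and 142 CPM in wild type, a log2 fold change of -0.51 (edgeR adjusted p = 0.0814). On the side of glh-4, the chromatin gene lin-59, whose span ends 5869 bases away, had an estimate of the other sign, with 75.6 CPM in cup-4 and 53.1 CPM in wild type (log2 fold change 0.51, edgeR adjusted p = 0.0534).

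Other genes of germ granules were taken from a list of 53, of which 52 were matched and tested in both assays (epg-11 was not matched). In antisense small RNA 0 of the 52 passed edgeR's adjusted threshold, 17 reached an unadjusted p under 0.05 (16 of them lower in cup-4), and the background for an unadjusted p under 0.05 was 22.8% of all genes, 11.1% as lower. DESeq2 called 11, all lower in cup-4, among 9.43% of all genes tested, 4.99% as lower. With edgeR and no filter on low counts 13 were called (12 lower, and meg-4 higher), among 5.2% of all genes. Limma-voom called 1, which was ppw-2, among 1.43%. With RLE size factors edgeR called 1, among 1.1%, and without wild-type replicate 1 it called 1, among 2.87%, both lower in cup-4. The list's median log2 fold change was -0.13, with 40 of 52 below 0, against 49.3% of all genes tested. Scaled by the germline markers, 1 of which (gld-1) is also on the list, the list's median was 0.097 and that of all genes 0.23. The smallest edgeR adjusted p belonged to ppw-2, an Argonaute gene singled out for that value (log2 fold change -0.46, adjusted p = 0.0550).

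By role, the median was -0.27 for 6 granule Argonaute genes, -0.17 for 9 genes of Z granules and SIMR foci, -0.14 for 8 P granule assembly genes, -0.12 for 6 further DEAD-box helicase genes and -0.078 for 17 RNA-binding protein genes. It was -0.11 for 3 genes of GLH-binding proteins and 0.010 for 3 genes of PGL removal. The most abundant gene of each role gave these levels. The Piwi Argonaute gene prg-1 had 750.2 ± 9.82 CPM in cup-4 and 903 ± 81.9 CPM in wild type (log2 fold change -0.27, edgeR adjusted p = 0.148). The Z granule helicase gene znfx-1 had 652 ± 17.1 CPM in cup-4 and 793 ± 21.5 CPM in wild type (-0.28, edgeR adjusted p = 0.1002), and mip-1, whose product has LOTUS domains and binds GLH-1, had 241 ± 22.8 CPM in cup-4 and 310.3 ± 16.8 CPM in wild type (-0.37, edgeR adjusted p = 0.104). None of these 3 antisense differences passed in edgeR with the filter on low counts. DESeq2 called all 3 (adjusted p = 0.0384 for prg-1, 0.00106 for znfx-1 and 0.00862 for mip-1), as did edgeR without the filter (0.0444, 0.0321 and 0.00396). The helicase gene rde-12 had 341 ± 6.57 CPM in cup-4 and 373 ± 28.2 CPM in wild type (-0.13, edgeR adjusted p = 0.379), and car-1, which encodes an RNA-binding protein of the LSm family, had 212 ± 13.96 CPM in cup-4 and 262 ± 37.5 CPM in wild type (-0.30, edgeR adjusted p = 0.184, and 0.0263 without the filter). The COP9 signalosome gene csn-5 had 62.2 ± 4.97 CPM in cup-4 and 69.1 ± 2.34 CPM in wild type (-0.15, edgeR adjusted p = 0.313), and the autophagy gene epg-2 had 12.0 ± 4.13 CPM in cup-4 and 12.1 ± 3.49 CPM in wild type (-0.023, edgeR adjusted p = 0.973), each with n = 3 per genotype.

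In mRNA 0 of the 52 passed in edgeR with the filter and 1, zyx-1, without it (adjusted p = 0.0429, among 1.49% of all genes). An edgeR unadjusted p under 0.05 was found for 5, against 17.2% of all genes tested. Of these, 1 was lower in cup-4, the P granule assembly gene elli-1 (log2 fold change -0.93, edgeR unadjusted p = 0.0122, adjusted p = 0.182). Limma-voom called 0 of the 52, and DESeq2 called 4, all higher in cup-4, among 8.29% of all genes tested (5.81% as higher). These 4, named after their values were seen, were sepa-1, epg-2 and epg-5, whose products serve the autophagic removal of PGL proteins from somatic cells of the embryo, and zyx-1, the zyxin gene, whose product binds GLH proteins. The edgeR log2 fold changes were 3.50 for sepa-1 (adjusted p = 0.126), 2.05 for epg-2 (0.179), 2.13 for epg-5 (0.221) and 1.30 for zyx-1 (0.157). The most abundant of the GLH-binding genes, zyx-1, had 113 ± 33.7 CPM in cup-4 (SD, n = 3) and 45.6 ± 12.8 CPM in wild type (SD, n = 2), and epg-5 had 14.3 ± 8.46 CPM in cup-4 and 3.27 ± 2.01 CPM in wild type. Intestine markers were higher in the same cup-4 mRNA libraries, as given above, and their part in these values was not tested.

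The most abundant genes of the other roles did not pass in mRNA in edgeR or DESeq2. The DEAD-box helicase gene cgh-1 had 2599 ± 465 CPM of mRNA in cup-4 and 3264 ± 1050 CPM in wild type (log2 fold change -0.33, edgeR adjusted p = 0.681), and the Argonaute gene wago-1 had 949 ± 150 CPM in cup-4 and 984 ± 365 CPM in wild type (-0.051, edgeR adjusted p = 0.958). The P granule gene deps-1 had 277 ± 43.9 CPM in cup-4 and 321 ± 66.6 CPM in wild type (-0.22, edgeR adjusted p = 0.737). The Z granule gene lotr-1 (499 ± 68.5 CPM in cup-4, 487 ± 159 CPM in wild type) and the helicase gene ddx-19 (221 ± 25.7 CPM in cup-4, 206 ± 87.6 CPM in wild type) had log2 fold changes of 0.033 and 0.10 (edgeR adjusted p = 0.973 and 0.907), with n = 3 for cup-4 and n = 2 for wild type throughout. The list's median was -0.053, against 0.16 over all genes tested.

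Finally, the genes whose pattern over all 11 libraries was most like that of glh-1 and pgl-1 were named, by the root mean square difference of log2 CPM centred within each assay, among 4689 genes that averaged 10 CPM or more in each assay. Nearest to glh-1 were set-31 (0.11), hrpk-2 (0.14) and C30G12.6 (0.15), and glh-4 came next (0.15), where the median gene had a difference of 0.34. The nearest to pgl-1 were rpn-2 (0.050), bub-1 (0.052) and zen-4 (0.052), against a median of 0.23. The gene pgl-3 was 67th in nearness to pgl-1 (0.083) and glh-3 98th (0.092). Of the 7 genes, glh-4 was the only member among the 10 genes nearest to glh-1, and no member was among the 10 nearest to pgl-1.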

How the data were processed

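Per the labels' protocols, gonad RNA came from a Trizol and chloroform extraction, and both library types were made with New England Biolabs kits, the mRNA kit being directional. The authors deposited raw counts of reads per gene, in antisense orientation for small RNA per the labels. Per the submitters' processing notes, FastQC, cutadapt, HISAT2, HTSeq and DESeq2 and the build ce11 were used, with no role or version. The tables' summary rows name no gene and entered neither library sizes nor tests (small RNA 44.0% to 49.1% of reads, mRNA 13.4% to 23.8%).

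Counts were tested in R 4.3.3 with edgeR 4.0.16 (robust glmQLFit, glmQLFTest, TMM, filterByExpr), with genotype as the model and a threshold of 0.05 after Benjamini-Hochberg adjustment. Standard errors are the absolute log2 fold change over the square root of F. The interaction model scaled each assay by itself and shared 1 dispersion per gene. DESeq2 1.42.0 and limma-voom (limma 3.58.1) were alternatives, with other scalings, filters, the batch block and each library left out. Scaling by germline markers was chosen after seeing the data. The tests were tried on simulated counts with the same dispersion for every gene and no batch effect, which is simpler than these data. No result given here rests on that trial. The likeness measure used a pseudocount of 0.5 CPM. Per the labels, replicate numbers are batches, which pairs the libraries. Deviations of same-batch libraries correlated at 0.08, 0.09 and 0.15 in small RNA and at -0.13 and 0.49 in mRNA. No 2 libraries of a group were alike to within counting noise (lowest chi-square over its degrees of freedom 19.8).

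The members and lists were chosen with earlier results of these data known. Named are the 7 genes, cup-4, genes of the germ granule list past the threshold in edgeR (there were 0) and the most abundant gene of each of its roles, the 3 genes nearest in pattern to glh-1 and to pgl-1, and genes overlapping a member. Outside this rule, chromosomal neighbours and some list genes were chosen after their values were seen. Those list genes were called only by an alternative, lowest in p or under 0.05 in unadjusted p. Marker genes are named as examples. Lengths are gene spans, since exon lengths were not used here, matched for 92.0% of genes tested in small RNA and 95.2% in mRNA.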

Additional observations from a re-analysis of the deposited data

How the results depend on the processing

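The antisense calls of glh-1 and glh-4 depended on the processing. The number of the 7 genes past the threshold was 2 with TMM, where 1.12% of all genes passed, a share given in brackets below. It stayed at 2 with limma-voom (1.43%), RLE size factors (1.1%), TMM without the 50 most abundant genes (1.12%) and batches 2 and 3 only (2.89%). It was 4 in DESeq2 (9.43%), 3 without a filter (5.2%) and 3 at a threshold of 0.1 (4.91%). It was 1 with the replicate block (1.97%), 1 with a mean count of at least 50 (2.17%), and 0 with total counts (1.64%) or scaling by germline markers (2.95%). Leaving out 1 library gave 0 to 2 (0.0935% to 2.95%). The count over all genes, 149, was 1258 in DESeq2, 1651 without a filter, 655 at a threshold of 0.1, 263 with the replicate block, 403 in batches 2 and 3 only and 394 scaled by germline markers, and 13 (without cup-4 replicate 2) to 406 (without wild-type replicate 1) with 1 library left out. Scaled by germline markers, glh-3, pgl-2 and pgl-3 reversed to 0.060, 0.064 and 0.078. In every other alternative run, all 7 antisense log2 fold changes stayed below 0.

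The mRNA count of 0 was 1066 in DESeq2, 313 without a filter and 199 with the replicate block, and 0 with 1 cup-4 library left out, with 0 of the 7 genes in each. Signs of the 7 mRNA fold changes were not stable. With the replicate block glh-3 was 0.072 and glh-4 0.19. For glh-4 limma-voom gave 0.099, batches 2 and 3 only (the same libraries as without cup-4 replicate 1) 0.0055 and germline markers 0.11. For pgl-2 and pgl-3, DESeq2 gave -0.045 and -0.030, RLE size factors -0.046 and -0.030, total counts -0.046 and -0.032, no filter -0.028 and -0.017, and a mean count of at least 50 gave -0.023 and -0.0086. With 1 library left out the ranges were -0.83 to 0.36 (glh-1), -0.44 to 1.17 (glh-2), -0.42 to 0.24 (glh-3), -0.47 to 0.63 (glh-4), -0.18 to 0.43 (pgl-1), -0.22 to 0.13 (pgl-2) and -0.25 to 0.30 (pgl-3). The lowest value came without wild-type replicate 2, except for pgl-2 (without cup-4 replicate 2), and the highest without wild-type replicate 3.

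For small RNA minus mRNA, the count of 240 genes was 59 in limma-voom and 32 to 1338 with 1 library left out (32 without cup-4 small RNA replicate 2, 1338 without wild-type mRNA replicate 3), and the count of the 7 genes was 0 to 2. Total counts gave 0.099 for glh-3 and 0.0058 for pgl-2. With 1 library left out the ranges were -0.89 to 0.30 (glh-1), -1.52 to 0.092 (glh-2), -0.40 to 0.26 (glh-3), -0.28 to 0.067 (pgl-2) and -0.44 to 0.11 (pgl-3). In the germ granule list DESeq2 called 11 in antisense small RNA and 4 in mRNA, no filter called 13 and 1, and the replicate block 0 and 0. Total counts kept the order of the 7 genes per kilobase in every library. With small RNA libraries alone, 1 of the 3 genes nearest to glh-1 and 0 of those nearest to pgl-1 were the same. The causes were not tested. The replicate block changed no other call of the 7 genes.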
